A study of Mus musculus with 2 samples.

Results

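Potassium channel genes are the genes whose symbol starts with Kcn. They were taken from the expression tables of 2 sorted cell populations of the embryonic mouse cortex, leaving out the noncoding RNA Kcnq1ot1. There were 93 such genes among 20373 listed, 66 for pore-forming subunits, 10 for electrically silent subunits, 16 for auxiliary subunits and 1, Kcnrg, for a regulator that is not a subunit of a channel. Both populations came from cortices of embryonic day 15.5 embryos that carried a green fluorescent protein under Nestin sequences, active in progenitors, and a red fluorescent protein under doublecortin sequences, active in young neurons. The neuron group was sorted as cells with both colours and the group of neural progenitor cells (NPCs) as green cells. Each group is 1 library of total RNA, and the labels do not say how many embryos were pooled. The series relates expression in NPCs and their daughter neurons to polymerase pausing and bivalent histone marks. The question addressed here is how the potassium channel genes differ between the libraries.

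Potassium channels let potassium ions leave the cell and so set the resting potential and end action potentials. Voltage-gated (Kv) channels are built of pore-forming subunits and open on depolarisation, and silent subunits and cytoplasmic or membrane partners alter their gating. Inward rectifiers and 2-pore channels carry the resting conductance. Calcium and sodium activated channels tie potassium efflux to the ions that enter during firing. Progenitors of the cortex have a negative resting potential with few voltage-gated currents, and neurons acquire voltage-gated potassium currents as they mature.

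Levels are given in CPM (counts per 1000000), on the scale between the libraries that the authors deposited. Reads on the listed genes numbered 23312054 in the neuron library and 26346226 in the NPC library, so that 1 CPM stands for 22.8 and 27.0 reads. The log2 ratio is log2 of (neuron + 1 CPM)/(NPC + 1 CPM) and understates differences of low genes. Fold differences of single genes are ratios of CPM without the added value, each with an exact 95% counting interval (Clopper-Pearson). With 1 library per group there is no replicate error and no test, so intervals cover counting error only, and without molecular identifiers reads may repeat the same molecule. Fewer cells of a type and less RNA per cell cannot be told apart in such bulk samples. The sorted labels were checked against marker genes. All 9 progenitor markers were at least 2-fold lower in neurons, with a summed level of 971.3 CPM in neurons and 2724 in NPCs. Of 9 neuronal markers 8 were higher in neurons, with a summed level of 10206 CPM in neurons and 6707 in NPCs. Both libraries thus held transcripts of both kinds. Markers of other cells also differed: the summed level of 10 microglia markers was 136.7 CPM in neurons and 31.96 in NPCs, that of 8 pericyte markers 20.6 in neurons and 240.3 in NPCs, and that of 8 endothelial markers 3.34 in neurons and 21.8 in NPCs. The 7 oligodendrocyte lineage markers summed to 35.8 CPM in neurons and 84.7 in NPCs, and 6 astrocyte markers to 35.2 in neurons and 128.7 in NPCs. The 8 interneuron markers summed to 219.95 CPM in neurons and 305.2 in NPCs, and 5 erythroid markers to 83.9 in neurons and 90.5 in NPCs.

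Sequence is shown for the inward rectifier genes Kcnj3, Kcnj8 and Kcnj10, because the log2 ratios of this group had the widest spread of any group. The windows are the 250 bases before the listed start of each gene, from RefSeq on GRCm38.p6, on the strand of the gene. Capitals mark matches, on either strand, to the GC box GGGCGG, the E-boxes CAGCTG and CAGATG and the TATA box TATAAA. The Kcnj3 window is chr2:55435720-55435969 (plus strand), that of Kcnj8 chr6:142571615-142571864 (minus strand) and that of Kcnj10 chr1:172340960-172341209 (plus strand).
Kcnj3: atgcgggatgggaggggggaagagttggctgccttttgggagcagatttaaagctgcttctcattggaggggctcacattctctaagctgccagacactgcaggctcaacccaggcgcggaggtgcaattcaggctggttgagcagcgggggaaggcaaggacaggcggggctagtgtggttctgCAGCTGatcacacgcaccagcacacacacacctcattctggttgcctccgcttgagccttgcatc
Kcnj8: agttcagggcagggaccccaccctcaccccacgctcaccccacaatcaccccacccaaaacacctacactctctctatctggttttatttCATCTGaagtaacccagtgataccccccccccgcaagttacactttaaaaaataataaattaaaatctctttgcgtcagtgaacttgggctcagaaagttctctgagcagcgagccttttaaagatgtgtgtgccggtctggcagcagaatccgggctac
Kcnj10: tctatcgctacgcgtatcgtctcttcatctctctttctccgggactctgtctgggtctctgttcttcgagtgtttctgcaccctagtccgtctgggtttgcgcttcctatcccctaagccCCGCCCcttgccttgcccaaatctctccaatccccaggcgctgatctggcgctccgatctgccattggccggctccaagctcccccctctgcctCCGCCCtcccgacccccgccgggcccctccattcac
The window of Kcnj3, which is higher in neurons, held 1 E-box CAGCTG, a motif present in 11.9% of 16220 windows of the same length. The window of Kcnj8, which is lower in neurons, held 1 CAGATG match (12.2% of windows held at least 1). The window of Kcnj10, also lower in neurons, held 2 GC boxes (44.9% of windows held at least 1) and 17 CG dinucleotides, against 7 in the Kcnj3 window and 6 in that of Kcnj8. TATAAA, present in 12.1% of windows, was found in none of the 3. These matches describe the letters in the windows only. Windows were at hand for 69 of the 93 genes, too few to compare base composition over the family.

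Potassium channel genes were more often higher than lower in neurons. Of the 93 genes 58 reached at least 1 CPM in at least 1 library, 47 of them in both, 8 only in neurons and 3 only in NPCs. A gene that passes only through the library where it is high had to differ, so the counts over these 58 describe them and do not stand for the family. At least 2-fold higher in neurons on the scale with 1 CPM added were 11 of 58 (19.0%), against 3.85% of all 12693 genes at this level. At least 2-fold lower in neurons were 5 (8.62%), against 6.73% of all genes, so that the share of strongly lower genes was near the background. In any size 42 of 58 were higher in neurons (72.4%, against 49.3% of all genes) and 16 lower (against 50.7%). The counting interval lay above 1 for 35 of the 58 and below 1 for 14, against 33.6% and 34.6% of all genes. The median log2 ratio was 0.46, against −0.0049 for all genes. Among the 11 genes were Kcnma1, Kcna1, Kcnh3, Kcnq3, Kcnk3, Kcnv1, Kcna6, Kcng3 and Kcnj3, and the 5 were Kcnj8, Kcnj10, Kcnk5, Kcne1l and Kcne4. Just inside and just outside the threshold lay Kcnj3 (log2 ratio 1.01) and Kcnj11 (0.99) on the upper side, and Kcne4 (−1.08) and Kcnh1 (−0.94) on the lower. With 5 CPM added in place of 1, the neuron level reached 2-fold or more above that in NPCs for 4 of the 58 (against 1.88% of all genes) and lay as far below it for 2 (against 3.14%). Where no value was added and the counting interval had to lie clear of 1, 18 genes lay 2-fold or more above NPCs in neurons (against 6.02% of all genes) and 6 as far below (against 9.04%).

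**Figure D1:**
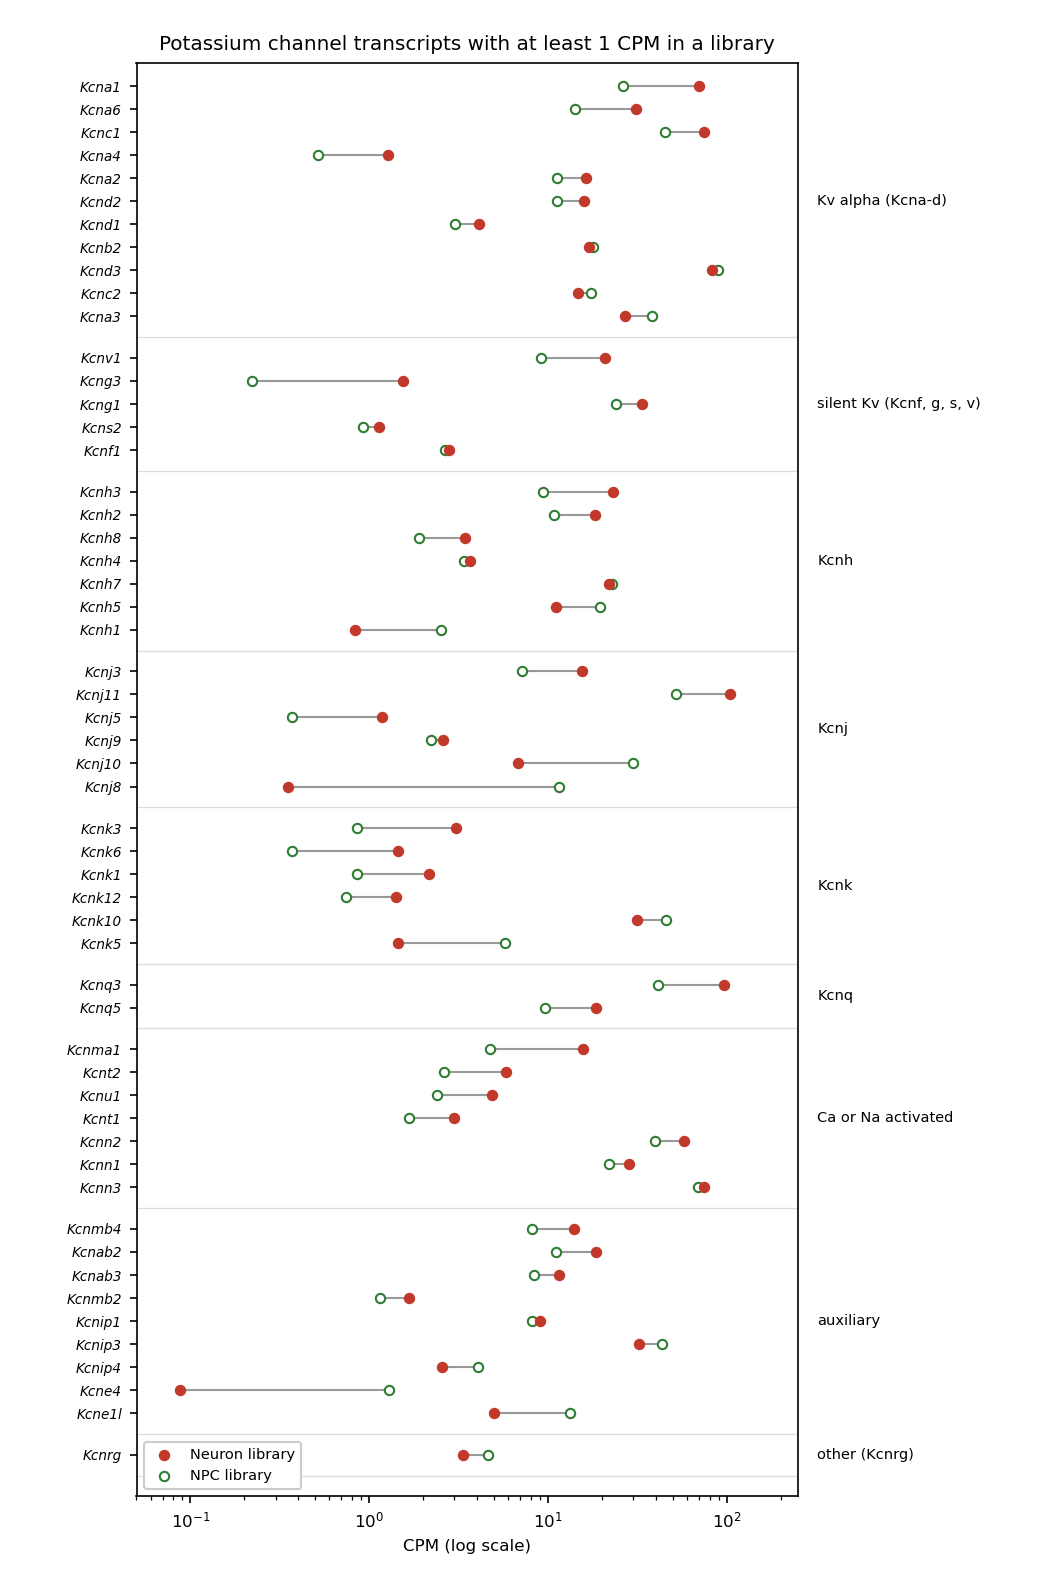
CPM on a logarithmic axis of 54 of the 58 potassium channel genes with at least 1 CPM in a library, by group, with 1 point per library (filled red for neurons, open green for NPCs). Kcnj11 is the farthest right of the neuron points drawn, at 104.6 CPM, and the longest line is that of Kcnj8, at 0.351 CPM in neurons and 11.5 in NPCs.

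Kcnq subunits form the slowly gating M-current that restrains repetitive firing. Kcnq3, one of the main subunits of the M-channel, was at 96.9 CPM in neurons and 41.3 in NPCs, 2.35-fold higher in neurons (2.18 to 2.52). Kcnq5, a further neuronal M-channel subunit, was at 18.7 CPM in neurons and 9.68 in NPCs (1.93-fold higher, 1.65 to 2.26). Kcnq1, the subunit of heart and epithelia, had 2 reads in each library.

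The pore-forming voltage-gated genes Kcna to Kcnd held the greatest share of potassium channel reads in both libraries, 31.3% in neurons (30.8 to 31.8) and 32.8% in NPCs (32.2 to 33.3), and they differed by member. In the Kcna subfamily, which gives low-threshold currents in axons, Kcna1 was at 69.7 CPM in neurons and 26.3 in NPCs (2.65-fold higher, 2.42 to 2.90). Kcna6 was at 31.1 CPM in neurons and 14.2 in NPCs (2.20-fold higher, 1.94 to 2.50). Kcna2, a partner of Kcna1 in axons, was 1.46-fold higher in neurons (1.25 to 1.70), and Kcna4 was at 1.27 CPM in neurons and 0.519 in NPCs (2.45-fold higher, 1.25 to 5.02). Kcna4 reached 1 CPM in the neuron library alone, so its direction was fixed by the filter. Kcna3, known from T cells and microglia as well as neurons, went the other way, at 26.9 CPM in neurons and 38.0 in NPCs (1.41-fold lower in neurons, 1.28 to 1.57). All 10 microglia markers were higher in neurons, and their part in the level of Kcna3 was not tested. Of the 8 Kcna genes 6 lie in a pair of clusters. Kcna5, Kcna1 and Kcna6 follow one another on chromosome 6 and were all higher in neurons, Kcna5 with only 20 reads there and 7 in NPCs. Kcna3, Kcna2 and Kcna10 follow one another on chromosome 3 and did not share a direction, Kcna10 having 10 reads in neurons and 12 in NPCs.

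The Kcnc genes encode channels that repolarise fast-spiking neurons. Kcnc1 was at 74.1 CPM in neurons and 44.8 in NPCs (1.65-fold higher, 1.54 to 1.78). Kcnc2 was lower in neurons, at 14.7 CPM there and 17.4 in NPCs (1.18-fold, 1.03 to 1.37). Among the Kcnd genes, which carry the transient A-type current of dendrites, Kcnd3 had the most reads, at 82.2 CPM in neurons and 89.5 in NPCs, 1.09-fold lower in neurons (1.02 to 1.16). Kcnd2 was 1.40-fold (1.20 to 1.64) and Kcnd1 1.37-fold (1.01 to 1.87) higher in neurons. The delayed rectifier gene Kcnb2 did not differ beyond counting error, with a ratio of neurons to NPCs of 0.952 (0.831 to 1.09). Kcnc4, with 4 reads in neurons and 5 in NPCs, stayed below 1 CPM, and Kcna7 had no read.

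Silent subunits do not form channels alone but join Kcnb subunits and shift their gating. All 5 past the filter were higher in neurons (against 49.3% of all genes), 3 of them with intervals above 1 (against 33.6%), while the interval of Kcnb2 held 1. Kcng3 and Kcns2 reached 1 CPM in the neuron library alone, so their direction was fixed by the filter. Kcnv1 was at 20.8 CPM in neurons and 9.08 in NPCs (2.29-fold higher, 1.95 to 2.68). Kcng1 was at 33.4 CPM in neurons and 24.0 in NPCs (1.39-fold higher, 1.25 to 1.55). Kcng3 was low, at 1.54 CPM in neurons (35 reads) and 0.222 in NPCs (6 reads) (6.91-fold higher, 2.87 to 20.1). For Kcnf1 (2.81 CPM in neurons and 2.67 in NPCs) and Kcns2 (1.14 in neurons and 0.927 in NPCs) the intervals of the ratio held 1. Kcns3, with 11 reads in neurons and 17 in NPCs, stayed below the filter.

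The Kcnh group, the ether-a-go-go related channels, split by member around a median log2 ratio of 0.074. Kcnh3, a forebrain channel of the ELK type, was at 23.2 CPM in neurons and 9.34 in NPCs (2.49-fold higher, 2.14 to 2.90). Kcnh2, the ERG channel known from cardiac repolarisation, was at 18.3 CPM in neurons and 10.8 in NPCs (1.69-fold higher, 1.45 to 1.97), and Kcnh8 was 1.81-fold higher (1.26 to 2.63). The EAG genes Kcnh5 and Kcnh1 were lower in neurons. Kcnh1 reached 1 CPM in the NPC library alone, so its direction was fixed by the filter. Kcnh5 was at 11.0 CPM in neurons and 19.6 in NPCs (1.78-fold lower in neurons, 1.53 to 2.08), and Kcnh1, an EAG channel linked to proliferation, was at 0.834 CPM in neurons and 2.52 in NPCs (3.02-fold lower, 1.80 to 5.32). The ELK gene Kcnh4 and the ERG gene Kcnh7 had ratios of 1.07 (0.784 to 1.45) and 0.958 (0.850 to 1.08) and did not differ beyond counting error. Kcnh6 had 17 reads in neurons and 7 in NPCs, below the filter.

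**Figure D2:**
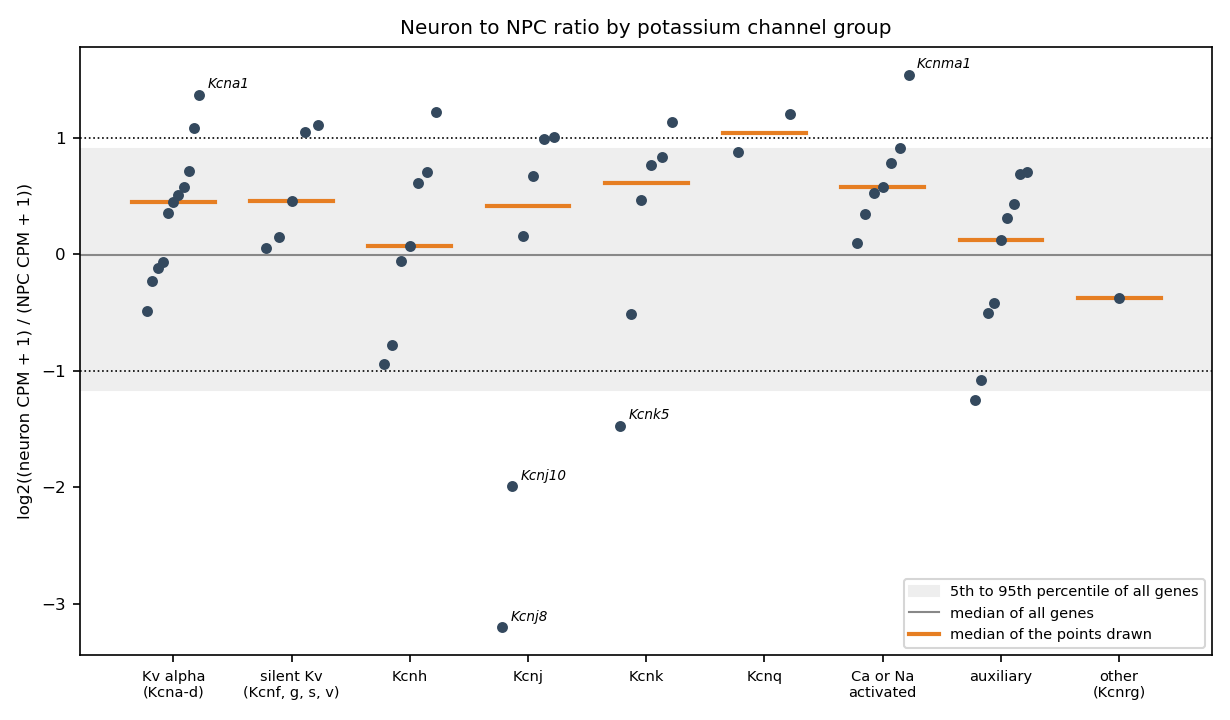
Log2 ratio of neuron to NPC CPM, with 1 CPM added to both, for 54 of the 58 genes past the filter by group (points, in order of value), with the median of the points drawn (orange), the 5th to 95th percentile of all 12693 genes (grey band) and 2-fold limits (dotted). The points of the calcium or sodium activated group all lie above 0, and the Kcnj points spread from −3.20 to 1.01.

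Inward rectifiers held the widest spread of any group. Kcnj11, the pore subunit of the ATP-sensitive channel that couples metabolism to excitability, was at 104.6 CPM in neurons and 52.2 in NPCs (2.005-fold higher, 1.88 to 2.14). Kcnj3, the G-protein-gated subunit, was at 15.5 CPM in neurons and 7.16 in NPCs (2.16-fold higher, 1.81 to 2.59), and its promoter window is the first shown above. The further G-protein-gated subunits were low. Kcnj5 was at 1.19 CPM in neurons and 0.371 in NPCs (3.20-fold higher, from 27 reads in neurons and 10 in NPCs), Kcnj9 had a ratio of 1.16 (0.799 to 1.70), and Kcnj6 had 8 reads in neurons and 9 in NPCs. Lower in neurons were Kcnj8 and Kcnj10. Kcnj8, the vascular pore subunit of ATP-sensitive channels, was at 0.351 CPM in neurons (8 reads) and 11.5 in NPCs (309 reads), 32.6-fold lower in neurons (16.4 to 76.2). Kcnj10, the channel by which glia take up potassium, was at 6.80 CPM in neurons and 30.03 in NPCs (4.41-fold lower, 3.71 to 5.28). Its usual glial partner Kcnj16 stayed below the filter, with no read in neurons and 6 in NPCs, and the interval of the ratio held 1. Kcnj9, which adjoins Kcnj10 on chromosome 1, was level. Kcnj5 passed the filter through the neuron library alone and Kcnj8 through the NPC library alone. Pericyte markers moved with Kcnj8 (8 of 8 lower in neurons, 20.6 CPM summed in neurons and 240.3 in NPCs, none at 0). Oligodendrocyte lineage markers (7 of 7 lower) and the 3 of 6 astrocyte markers past the filter, all lower, moved with Kcnj10. In the astrocyte list only Gjb6 was at 0, in NPCs. Endothelial markers (8 of 8) and progenitor markers (9 of 9) were lower in neurons as well. The part of any of these cells in the values was not tested.

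Each ATP-sensitive pore subunit pairs with a sulfonylurea receptor, and the receptor gene lies beside the pore gene, Abcc8 next to Kcnj11 on chromosome 7 and Abcc9 next to Kcnj8 on chromosome 6. Abcc8 was at 166.3 CPM in neurons and 62.3 in NPCs (2.67-fold higher, 2.52 to 2.83), the direction of Kcnj11. Abcc9 was at 2.81 CPM in neurons and 61.5 in NPCs (21.9-fold lower, 17.1 to 28.6), the direction of Kcnj8. The pericyte markers Pdgfrb (2.33 CPM in neurons and 54.0 in NPCs) and Rgs5 (2.68 in neurons and 39.2 in NPCs) were 23.2-fold (17.7 to 31.1) and 14.6-fold (11.3 to 19.3) lower in neurons.

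**Figure D3:**
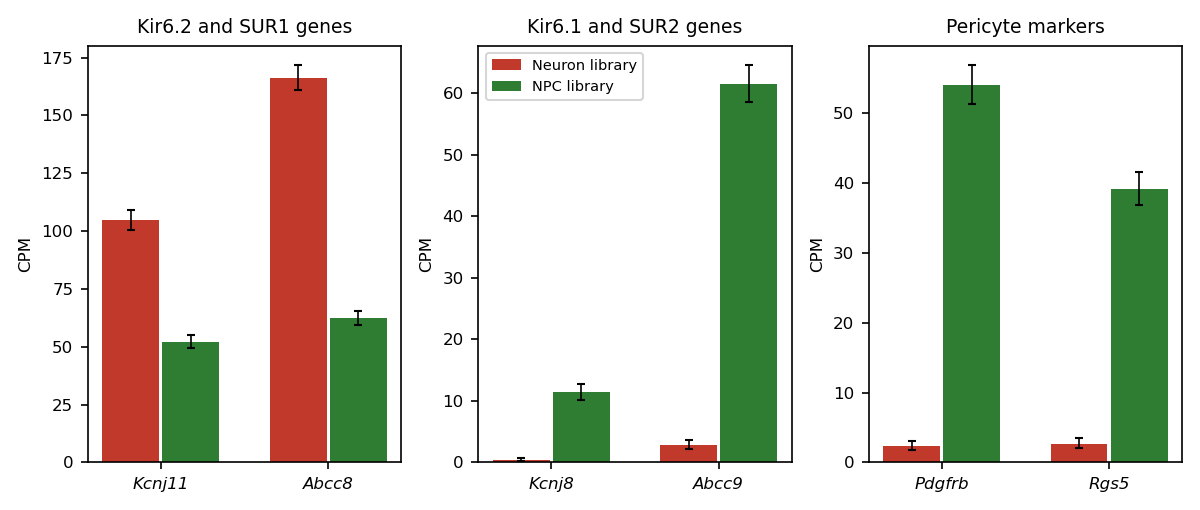
CPM in the neuron (red) and NPC (green) library of ATP-sensitive channel genes and of the pericyte markers Pdgfrb and Rgs5, with exact 95% Poisson intervals of the read counts, each panel on its own linear axis from 0. Kcnj11 and Abcc8 are higher in neurons, and Kcnj8 (0.351 CPM in neurons and 11.5 in NPCs) and Abcc9 are lower together with both markers.

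The 2-pore genes, which carry leak currents, were mostly low, and their share of potassium channel reads was 3.27% in neurons (3.07 to 3.48) and 5.79% in NPCs (5.50 to 6.08). Kcnk10, a mechanosensitive channel of the TREK type, was at 31.6 CPM in neurons and 45.5 in NPCs (1.44-fold lower in neurons, 1.31 to 1.58). Kcnk5, an alkaline-activated channel known from epithelia, was at 1.45 CPM in neurons and 5.78 in NPCs (3.99-fold lower, 2.73 to 6.003). The acid-sensitive channel gene Kcnk3 was at 3.07 CPM in neurons and 0.853 in NPCs (3.60-fold higher, 2.22 to 6.05). At 1.40 to 2.15 CPM in neurons, Kcnk1 was 2.52-fold (1.51 to 4.34), Kcnk6 3.91-fold (1.88 to 8.89) and Kcnk12 1.89-fold (1.05 to 3.49) higher there. Kcnk13, which carries the resting conductance of microglia, had 15 reads in neurons and 3 in NPCs. The microglia markers were higher in neurons as well (10 of 10, 9 of them at least 2-fold, none at 0), and their part in the values of Kcnk13 and Kcnk6 was not tested. Kcnk1, Kcnk3, Kcnk6 and Kcnk12, the only Kcnk genes past the filter that were higher in neurons, reached 1 CPM in the neuron library alone, so the filter fixed their direction. Both Kcnk genes with at least 1 CPM in each library, Kcnk5 and Kcnk10, were lower in neurons.

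All 7 genes past the filter in the calcium or sodium activated group, formed by symbol, were higher in neurons, against 49.3% of all genes. Each had at least 1 CPM in both libraries (median log2 ratio 0.58). Kcnma1, the large-conductance channel that responds to both calcium and voltage, had the greatest log2 ratio of the family at 1.54, with 15.8 CPM in neurons and 4.75 in NPCs (3.32-fold higher, 2.71 to 4.10). The small-conductance genes, which contribute to the afterhyperpolarisation that follows spikes, were abundant and nearer to level. Kcnn3 was at 74.2 CPM in neurons and 69.4 in NPCs, a ratio of 1.07 with an interval that only just clears 1 at its lower end. Kcnn2 was at 57.5 CPM in neurons and 39.5 in NPCs (1.46-fold higher, 1.34 to 1.58), and Kcnn1 at 28.4 in neurons and 22.02 in NPCs (1.29-fold higher, 1.15 to 1.44). The sodium-activated genes Kcnt2 (5.84 CPM in neurons and 2.63 in NPCs) and Kcnt1 (2.98 in neurons and 1.67 in NPCs) were higher too, Kcnt2 2.22-fold (1.65 to 3.002) and Kcnt1 1.79-fold (1.21 to 2.67). Kcnu1, a channel known from sperm, was at 4.87 CPM in neurons and 2.41 in NPCs (2.02-fold higher, 1.48 to 2.79). It was placed in this group by its symbol, not by what opens the channel. Kcnn4, the channel of blood and immune cells, had no read in neurons and 1 in NPCs.

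Auxiliary subunits went both ways, and their share of potassium channel reads was 7.49% in neurons (7.19 to 7.79) and 10.7% in NPCs (10.3 to 11.04). Kcnmb4, the neuronal beta subunit of the Kcnma1 channel, was at 13.9 CPM in neurons and 8.16 in NPCs (1.71-fold higher, 1.43 to 2.04), the same direction as its pore subunit, and Kcnmb2 was at 1.67 CPM in neurons and 1.15 in NPCs (ratio 1.45, 0.879 to 2.41). The cytoplasmic beta subunits of Kcna channels were higher in neurons too, Kcnab2 at 18.4 CPM there and 11.05 in NPCs (1.67-fold, 1.44 to 1.94) and Kcnab3 1.39-fold (1.16 to 1.67). Kcnip genes encode calcium sensors that bind Kcnd channels. Kcnip3, which also acts as a transcriptional repressor, was at 32.5 CPM in neurons and 43.6 in NPCs (1.34-fold lower in neurons, 1.22 to 1.47). Kcnip4 was 1.59-fold lower (1.14 to 2.22), and Kcnip1 had a ratio of 1.10 (0.908 to 1.34). The genes for membrane-spanning Kcne subunits that passed the filter, Kcne1l and Kcne4, were lower in neurons. Kcne4 reached 1 CPM in the NPC library alone, so its direction was fixed by the filter. Kcne1l was at 5.004 CPM in neurons and 13.3 in NPCs (2.65-fold lower, 2.14 to 3.30). Kcne4 had 2 reads in neurons and 35 in NPCs (14.8-fold lower, 3.80 to 126.8). Pericyte (8 of 8), endothelial (8 of 8) and oligodendrocyte lineage (7 of 7) markers were lower in neurons as well. The part of these cells in the value of Kcne4 was not tested. Kcnrg, a regulator that hinders assembly of Kcna channels, was at 3.34 CPM in neurons and 4.63 in NPCs (1.39-fold lower, 1.04 to 1.87).

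Per kilobase of annotated exons, which allows genes to be set beside each other, the order at the top of the family differed between the libraries. In neurons Kcnj11 came first at 28.5 CPM per kilobase, followed by Kcna1 (14.6) and Kcna3 (14.1), and Kcnip3 (9.16) and Kcnd3 (8.57) were also high. In NPCs Kcna3 came first at 19.999, followed by Kcnj11 (14.2), Kcnip3 (12.3), Kcnd3 (9.33), Kcne1l (8.60) and Kcnn3 (6.64). Kcna1 and Kcna3 lay close together in neurons, while in NPCs Kcna1 stood at 5.51. The levels of all 58 genes in both libraries had a Spearman's rho of 0.83, a description across genes that share their lengths. Exon lengths come from GENCODE M21 on GRCm38 and may differ from those the authors counted on.

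**Figure D4:**
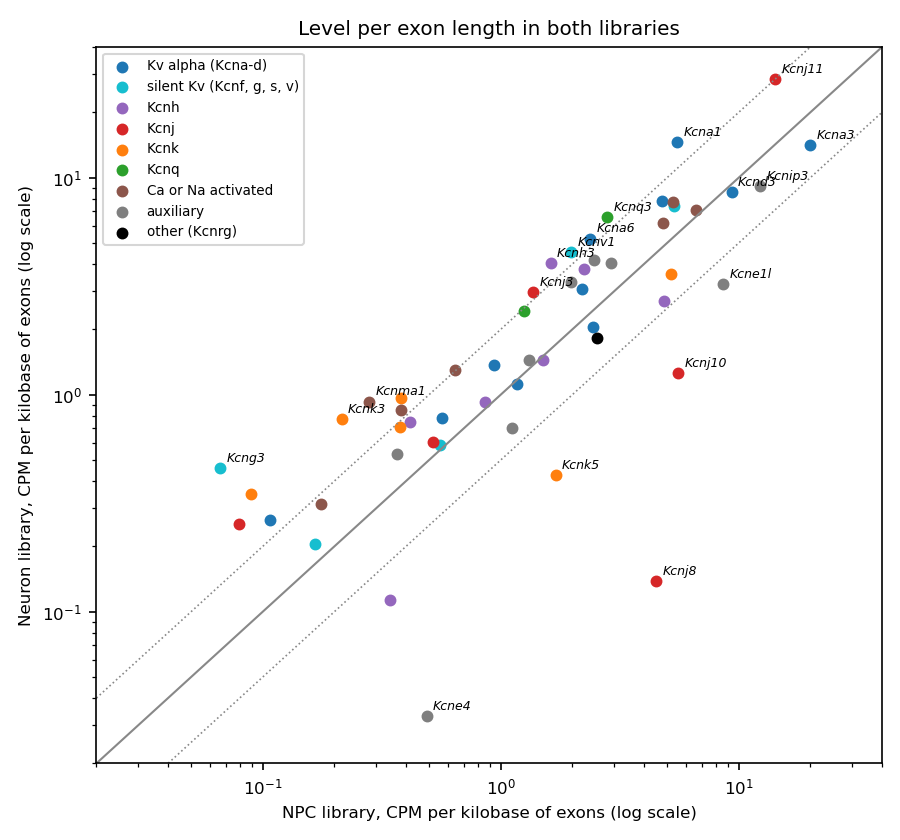
Level in CPM per kilobase of exons in neurons (vertical) and NPCs (horizontal), on logarithmic axes, for 54 of the 58 genes past the filter, coloured by group, with equality (solid) and 2-fold (dotted) lines. Kcnj11 lies highest at 28.5 in neurons and 14.2 in NPCs. With no value added here, Kcnj8, Kcnj10, Kcnk5, Kcne1l, Kcne4 and Kcnh1 lie below the lower 2-fold line.

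Of the 35 genes below 1 CPM in both libraries, 5 had no read in either, 12 had 1 or 2 reads at most and 18 had at least 3 in a library. A count of 3 reads is 0.132 CPM in neurons and 0.111 in NPCs, which is the level that a count of 0 allows at this depth. Those with no read were Kcna7 of muscle, Kcnj1 of the kidney, Kcng4, Kcnk15 and Kcnk16. The 12 were Kcng2, Kcns1, Kcnv2, Kcnj12, Kcnj4, Kcnk9, Kcnk4, Kcnq1, Kcnn4, Kcne2, Kcnmb3 and Kcne3. Among the 18, the interval lay above 1 for Kcna5, Kcnh6 and Kcnk13, each given above, and below 1 for none. Level or unresolved in this set were the classical inward rectifier Kcnj2 (14 reads in neurons and 15 in NPCs), Kcnj14 (19 in neurons and 15 in NPCs), Kcnj13 (11 in neurons and 6 in NPCs), Kcnab1 (16 in neurons and 14 in NPCs) and Kcnip2 (13 in neurons and 11 in NPCs). Kcnmb1, the smooth muscle beta subunit, had 2 reads in neurons and 9 in NPCs, and Kcnj15 had 1 in neurons and 6 in NPCs. Kcne1, Kcnk7 and Kcnk18 had at most 4.

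Genes that anchor, modulate or accompany these channels, or move potassium by other means, were taken as a list of 42, of which 36 were past the filter. Of these 25 were higher in neurons (69.4%, against 49.3% of all genes) and 11 lower. At least 2-fold higher in neurons were 5 (13.9%, against 3.85% of all genes), and 2 were at least 2-fold lower (5.56%, against 6.73%), a share near the background. The median log2 ratio of the list was 0.21, against −0.0049 for all genes. Above the rest in ratio were Dlg2, a scaffold that clusters Kcna channels (92.8 CPM in neurons and 30.9 in NPCs, 3.002-fold higher, 2.77 to 3.26), and Cntn2, an adhesion molecule of the Kcna complex beside the node of Ranvier (3412 CPM in neurons and 1194 in NPCs, 2.86-fold higher, 2.82 to 2.90). Abcc8, given above, and Lgi1, a secreted partner of Kcna complexes (2.76-fold higher, 2.23 to 3.42), followed. Among the lowest in ratio were Abcc9, given above, the potassium chloride cotransporter gene Slc12a7 (1.63-fold lower, 1.53 to 1.74) and the pump subunit gene Atp1b2 (1.39-fold lower, 1.28 to 1.51). Among Kcnd partners Dpp6 was 1.68-fold higher (1.49 to 1.89) and Dpp10 1.23-fold lower in neurons (1.04 to 1.45). Slc12a5, which extrudes chloride in mature neurons, was low, at 4.43 CPM in neurons and 6.27 in NPCs (1.41-fold lower, 1.10 to 1.83).

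Overlapping genes limit some values, since the sources used here do not say whether reads were counted by strand. In GENCODE M21, exons on the opposite strand cover at least 10% of the exon length of several genes past the filter, among them Kcna6 (39.6%), Kcnj3 (31.1%) and Kcnmb4 (20.8% and 10.7%, by separate antisense genes). Reads of these genes and of their antisense partners cannot be told apart.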

How the data were processed

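RNA was sequenced from sorted neurons and NPCs, 1 library each. Per the labels' protocols, cortices were dissociated with EDTA and DNase I, cells were sorted by fluorescence, total RNA was extracted with TRIzol and libraries were made with an Illumina TruSeq kit. Genome build mm9 is named in the submitters' processing notes, beside the tools SAMtools 0.1.18, TopHat 1.2.0, CASAVA 1.9 and an edgeR of unnamed version, without roles. Not given in the sources used here are the annotation, the strand setting and the handling of multiply aligned reads. The deposited values are a signal per gene, never below 0, in the form of read counts that the authors rescaled to one library size. Division by the value of 1 read, 1.12797 in neurons and 0.952727 in NPCs, gave whole reads for 100% of values in both libraries (within 0.05 reads, after a fitted offset of 0.0104 and −0.00401). Values under 0.01 were taken as 0 in both libraries.

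Both libraries were divided by 25698104, the mean of the deposited sums, and multiplied by 1000000, which gives CPM and keeps the authors' scaling. With 1 library per group no count test was run on the recovered reads, and no p-value was computed. Ratios were formed over all 20373 genes and counted from 2-fold among those with at least 1 CPM in a library. The groups follow the symbols, with Kcnab, Kcne, Kcnip and Kcnmb as auxiliary and Kcnu in the calcium or sodium activated group. The rule for named genes takes, with values, every member at least 2-fold apart and the 4 members of each group with most reads. Of the other members past the filter it takes the ratio, below the filter those with at least 3 reads are named, and of the partner list the 4 members farthest from 0 on each side by log2 ratio. Dpp6, Dpp10, Slc12a5, Pdgfrb and Rgs5 were named after their values were seen. Several of the genes taken by this rule enter the counts but are neither reported here nor drawn in the plots. The members and lists were chosen with earlier results of these data known. An older symbol was used for 1 list gene, Map2. Alternatives for scaling, added value, filter and the 2-fold rule were run (TMM factors from edgeR 4.0.16 in R 4.3.3; the rest in Python 3.11.15 with SciPy 1.17.1). The calculations were tested on simulated data. Promoter sequences come from RefSeq on GRCm38.p6 and exon lengths from GENCODE M21, another build than mm9, so they are joined by symbol only. No base inside an exon that GENCODE annotates for the same gene was printed.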

Additional observations from a re-analysis of the deposited data

How the results depend on the processing

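With 1 library per group there is no replicate to leave out, and counting error is the only error measured. No paired analysis was possible because each group has a single library. Under the 4 other scalings (total reads, TMM, median of ratios and upper quartile) 0 of the 58 genes past the filter changed the sign of their log2 ratio, and the counts of genes at least 2-fold apart stayed within 1.5 times. The counts depend more on the value added before the logarithm. With 5 CPM added, 4 potassium channel genes were at least 2-fold higher and 2 at least 2-fold lower in neurons, the median log2 ratio was 0.26, and over all genes the counts were 238 and 399. With a filter of 10 CPM, 34 potassium channel genes passed, of which 8 were at least 2-fold higher and 3 at least 2-fold lower in neurons. Over all genes the counts were 358 and 548. No share over all genes is given at this filter, so these counts are not compared. The medians of the Kcnj and Kcnk genes past the filter, 0.41 and 0.62 at 1 CPM, were −0.50 and −0.51 at 10 CPM. Only Kcnk10 was then left in Kcnk, so that the value is its own log2 ratio. In Kcnj only Kcnj3 and Kcnj11, higher in neurons, and Kcnj8 and Kcnj10, lower there, were left. Neither median therefore shows that a group turned. Genes that pass through the neuron library alone, 4 of 6 in Kcnk, had to be higher there. Without a filter, which brings in the 35 genes below 1 CPM, the median of all 93 genes was 0.095 and that of Kcnk was 0. Where no value was added and the counting interval had to lie clear of 1, 18 potassium channel genes and 764 of all genes lay 2-fold or more above NPCs in neurons, and 6 potassium channel genes and 1147 of all genes as far below.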
